A study of Mus musculus with 6 samples.

Results

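9 genes that carry the insulin signal to glucose uptake were followed, chosen by gene symbol from the 36144 symbols of the series' gene table: the receptor gene *Insr*, the substrate genes *Irs1* and *Irs2*, the PI3-kinase regulatory subunit gene *Pik3r1*, the kinase genes *Akt1* and *Akt2*, *Tbc1d4*, which encodes AS160, and the glucose transporter genes *Slc2a4* (GLUT4) and *Slc2a1* (GLUT1). All 9 passed the filter on low counts and were among the 16069 genes tested. RNA was sequenced from whole inguinal white adipose tissue (iWAT) of 3 Cebpa_ASKO and 3 Cebpa_fl/fl females, 10 weeks old, on a C57BL6/J background and with free access to food. Both genotypes carried floxed *Cebpa*. Cebpa_ASKO mice (ASKO below) also carried AdipoQ-Cre, which is active in cells that express adiponectin, and Cebpa_fl/fl mice (fl/fl below) were Cre-negative controls. Per the sample labels, a library came from the inguinal fat of 1 mouse, freed of lymph nodes, so that vascular, immune, nerve and epithelial cells, which do not express the driver, are part of every sample. All libraries carry the batch label 1. The estimated counts per library summed to between 33141769 and 49477671. The comparison asked how the transcripts of this pathway stood in fat whose adipocytes had lost C/EBPα.

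Insulin binds a receptor tyrosine kinase at the adipocyte surface, and the activated receptor phosphorylates the IRS adaptor proteins, which recruit PI3-kinase through its regulatory subunit. The lipid product of PI3-kinase brings AKT to the membrane, where it is activated, and AKT then phosphorylates AS160, a Rab GTPase-activating protein that otherwise holds GLUT4 vesicles inside the cell. GLUT4 moves to the plasma membrane and glucose enters, whereas GLUT1 resides at the surface of most cells and supplies uptake that does not depend on insulin. Much of this control is exerted by phosphorylation and vesicle movement, which transcript levels do not show.

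*Cebpa* itself was measured at 448, 465 and 498 CPM in fl/fl 1, 2 and 3 and 37.7, 45.8 and 37.2 CPM in ASKO 1, 2 and 3 (CPM being counts relative to the TMM-scaled library total). Every ASKO library lay far below every fl/fl library, as their labels state, and the mean in ASKO was 8.55% of that in fl/fl. On the log2 scale it fell by 3.55 (standard error 0.131, adjusted p = 0.000163, edgeR, Benjamini-Hochberg). Adipocyte markers were abundant in all libraries: the 8 listed summed to 28290.4, 35471 and 31559 CPM in fl/fl 1, 2 and 3 and 9393, 7632 and 8282 CPM in ASKO 1, 2 and 3. *Cfd* was the most abundant in each fl/fl library and *Fabp4* in each ASKO library, and none was at 0. The sum was lower in each ASKO library, and 5 of the 8 (*Retn*, *Adipoq*, *Cidec*, *Cfd* and *Plin1*) fell (7 with DESeq2 and 4, *Plin1* being lost, without ASKO 1, without ASKO 2 or with a replicate block). In whole tissue, a lower value from fewer adipocytes and one from less RNA per adipocyte cannot be told apart, and this holds for each gene expressed in adipocytes that is lower below. Single libraries stood apart in other lists. The 6 lymphocyte markers summed to 207 CPM in fl/fl 1 but to between 2.73 and 7.23 CPM in the other 5 libraries, with *Cd79a* the most abundant in fl/fl 1 and *Cd3d* in the others. None of these was called with edgeR (5 at an unadjusted p under 0.05, and 2 called with DESeq2). The labels state that lymph nodes were taken out, and the value in fl/fl 1 leaves that in doubt for this library; whether node tissue remained was not tested. In fl/fl 2, genes that insulin induces were low, as given below.

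Of the 9 genes, 2 were called at an adjusted p below 0.05 in ASKO against fl/fl, *Insr* and *Tbc1d4*, and both fell. Across the whole fit, 840 (5.23%) were called, 617 (3.84%) lower and 223 (1.39%) higher. The genotypes did not overlap for 5 of the 9 (*Insr*, *Irs2*, *Akt2* and *Tbc1d4* lower in ASKO, *Slc2a1* higher), against 26.1% of all genes tested. The remaining 4, *Irs1*, *Pik3r1*, *Akt1* and *Slc2a4*, had overlapping values, and the median log2 fold change over the 9 was -0.35, beside 0.025 for all genes tested. With DESeq2, which called 1802 genes, 4 of the 9 were called, with *Akt2* lower and *Slc2a1* higher as additions. Without ASKO 1 or without ASKO 2, 311 and 363 genes were called, and of the 9 *Insr* alone. Without fl/fl 1, 2 or 3, 508, 922 and 502 genes were called, with *Insr* and *Tbc1d4* among them each time.

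On the per-length TPM scale, on which genes can be compared with each other, the order of mean levels in fl/fl was *Akt2* (146 ± 9.78 TPM, SD, n = 3), *Slc2a4* (114 ± 29.3), *Akt1* (68.8 ± 7.79), *Pik3r1* (40.3 ± 10.0), *Irs1*, *Tbc1d4*, *Insr*, *Irs2* and *Slc2a1* (9.67 ± 2.51 TPM). Neighbours in this order overlapped in their library TPM, except *Slc2a4* with *Akt1*, *Akt1* with *Pik3r1*, and *Insr* with *Irs2*. In ASKO the first 5 places were the same, but *Slc2a1* stood sixth by mean TPM (17.3 ± 5.49), ahead of *Tbc1d4* (11.8 ± 1.79) and *Insr* (9.45 ± 1.52), although its library TPM overlapped those of *Irs1* and *Tbc1d4*. *Akt2* and *Slc2a4* then had nearly equal means, at 118 and 118 TPM.

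**Figure D1:**
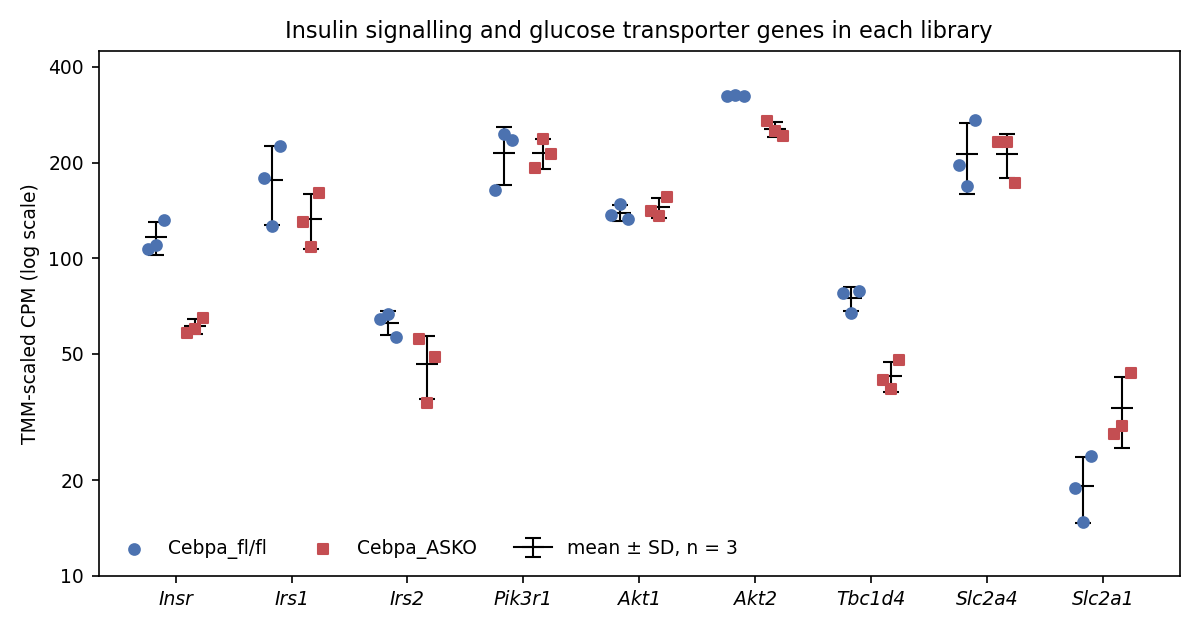
TMM-scaled CPM (log axis) of the 9 genes in each library, with 3 Cebpa_fl/fl libraries as circles, 3 Cebpa_ASKO libraries as squares, and the mean ± SD of each genotype in black. The genotypes are apart for *Insr*, *Irs2*, *Akt2*, *Tbc1d4* and *Slc2a1*, and *Slc2a4* lies between 169 and 272 CPM in both.

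*Insr*, which lies on the minus strand at chr8:3122061-3279617 (GRCm38), was measured at 107, 109.6 and 132 CPM in fl/fl 1, 2 and 3 and 58.3, 59.8 and 64.7 CPM in ASKO 1, 2 and 3. The 3 ASKO libraries lay within a narrow band, and the highest of them was well under the lowest control. The means were 116 ± 13.6 CPM in fl/fl and 60.9 ± 3.37 CPM in ASKO (SD, n = 3 each), so that ASKO held 52.4% of the control level. *Insr* fell by 0.93 on the log2 scale (standard error 0.108, 95% interval -1.19 to -0.67, adjusted p = 0.00516, edgeR, Benjamini-Hochberg), and it was called in all 16 fits run. Most of its TPM came from Insr-201, the sole full-length form annotated, with 1372 residues encoded in 21 exons, at 12.8, 14.7 and 16.9 TPM in fl/fl 1, 2 and 3 and 7.05, 8.15 and 9.09 TPM in ASKO 1, 2 and 3. This transcript was lower in each ASKO library, like the gene as a whole. Receptor forms with and without the alternatively spliced exon could not be separated with these transcripts. Among 12431 genes whose mean log2 CPM was 1 or more, those with the profile nearest to *Insr* over the 6 libraries were *Mapk6* (root-mean-square difference of centred log2 CPM 0.0618), *Hsd11b1* (0.0639) and *Ppp2r1b* (0.0640). The median gene differed by 0.519. *Hsd11b1*, which encodes the enzyme that regenerates active glucocorticoid, was at 49.8, 46.7 and 59.1 CPM in fl/fl and 28.2, 28.9 and 29.4 CPM in ASKO, nearly proportional to *Insr* in every library. Endothelial cells also express the insulin receptor, and the 6 endothelial markers summed to 328, 359 and 383 CPM in fl/fl 1, 2 and 3 and 239.6, 224 and 303 CPM in ASKO 1, 2 and 3, with *Pecam1* the most abundant (*Cdh5* in fl/fl 3) and none at 0. This sum was lower in each ASKO library too, and 2 of the 6 markers fell (*Emcn* and *Cldn5*). These calls were not stable, with 0 called without ASKO 1, with any control left out, with library totals, with limma or with a replicate block, 1 without ASKO 2, and 3 with DESeq2. The part of endothelial cells in the *Insr* result was not tested.

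*Irs1*, on the minus strand at chr1:82233101-82291416, was measured at 179, 126 and 225 CPM in fl/fl 1, 2 and 3 and 130.4, 109 and 160.4 CPM in ASKO 1, 2 and 3. Values were scattered in both genotypes, with fl/fl 3 the highest and fl/fl 2 below ASKO 1 and ASKO 3. Its log2 fold change was -0.41 (95% interval -0.97 to 0.15, adjusted p = 0.408, edgeR, Benjamini-Hochberg), and with a library left out it ran from -0.61 (without fl/fl 2) to -0.20 (without fl/fl 3). *Irs2*, at chr8:10984681-11008458 on the minus strand, was measured at 64.3, 66.9 and 56.6 CPM in fl/fl 1, 2 and 3 and 55.7, 35.1 and 48.7 CPM in ASKO 1, 2 and 3. All ASKO libraries were below all fl/fl libraries, but ASKO 1 and fl/fl 3 nearly touched. Its log2 fold change of -0.43 (95% interval -0.84 to -0.016) had an adjusted p of 0.235 (edgeR) and was not called, and it ran from -0.58 to -0.28 with a library left out. The balance between the adaptors overlapped between genotypes. *Irs1* made up 65.6%, 56.4% and 73.2% in fl/fl 1, 2 and 3 and 61.6%, 67.9% and 69.3% in ASKO 1, 2 and 3 of the *Irs1* and *Irs2* TPM (exact two-sided permutation test, p = 0.9), and the spread among controls was wider than the difference. The gene of the further family member, *Irs4*, had 0 counts in all libraries, which allows up to 0.0951 CPM (3 counts) in the shallowest.

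The list of receptors and substrates held 14 genes, of which 13 were tested and 2 were called, both lower in ASKO, with a median log2 fold change of -0.092. Besides *Insr* this was *Cav1*. *Cav1*, the gene of the main caveolar coat protein and the most abundant of the list by TPM, was at 854, 1076 and 987 CPM in fl/fl 1, 2 and 3 and 509, 442 and 389 CPM in ASKO 1, 2 and 3. It fell by 1.12 (adjusted p = 0.0110, edgeR), but was not called without ASKO 2 (0.063), or with a replicate block (0.074), in a range of adjusted p of 1.49e-11 to 0.0740 over the 16 edgeR, DESeq2 and limma fits. Endothelium is also rich in caveolae, and its part in the *Cav1* result was not tested. The adaptor genes *Shc1*, *Grb2*, *Gab1*, *Cbl* and *Crk*, chosen after their values were seen, had log2 fold changes between -0.093 and 0.13, and none was called.

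*Pik3r1*, on the minus strand at chr13:101680563-101768217, encodes the subunit that docks PI3-kinase on phosphorylated IRS proteins. It was measured at 164, 245 and 235 CPM in fl/fl 1, 2 and 3 and 192, 238 and 213 CPM in ASKO 1, 2 and 3. The genotypes overlapped throughout, with fl/fl 1 the lowest and fl/fl 2 the highest of all libraries. The log2 fold change was -0.0032 (95% interval -0.42 to 0.42, adjusted p = 0.995, edgeR, Benjamini-Hochberg). Of its transcripts, the long and the short coding forms differed in pattern. Pik3r1-202, which encodes the long p85α form of 724 residues, stood at 25.8, 43.6 and 39.4 TPM in fl/fl 1, 2 and 3 and 29.5, 41.2 and 39.3 TPM in ASKO 1, 2 and 3, again with overlap. Pik3r1-201, which encodes the shorter p55α form of 454 residues from a start of its own inside the gene, stood at 0.818, 0.998 and 2.23 TPM in fl/fl 1, 2 and 3 and 3.38, 5.35 and 2.00 TPM in ASKO 1, 2 and 3. ASKO 1 and ASKO 2 exceeded every control for this form, whereas ASKO 3 lay just under fl/fl 3. As a share of *Pik3r1* TPM, Pik3r1-201 made up 2.82%, 2.07% and 5.12% in fl/fl 1, 2 and 3 and 9.48%, 10.0% and 4.50% in ASKO 1, 2 and 3 (exact two-sided permutation test, p = 0.2). The share of Pik3r1-202 was 88.9%, 90.5% and 90.3% in fl/fl 1, 2 and 3 and 82.9%, 76.9% and 88.6% in ASKO 1, 2 and 3, lower in each ASKO library (exact permutation test, p = 0.1, the smallest that 3 against 3 libraries allow). Its mean share differed by -7.12 percentage points in TPM but by -2.41 in estimated counts, and by -4.18 in TPM without ASKO 2 and -10.0 without ASKO 3. For Pik3r1-201 the difference was 4.65 points in TPM and 2.27 in estimated counts. Shares were compared in this way for 13 transcripts, and 4 did not overlap (Akt1-201, Insr-201, Insr-203 and Pik3r1-202), beside 11.8% over the transcripts of all genes tested. The exact permutation p of these 4, not adjusted for the number compared, was 0.1 each, and all 4 differed by less in estimated counts. The short form is told apart from the long one by 106 coding bases at its 5′ end, in exon 1 at chr13:101692183-101692288 on the minus strand of GRCm38, and shares the other 1256 coding bases with Pik3r1-202. The spans of Pik3r1-204, Pik3r1-205 and Pik3r1-207 also cover this stretch, and the part of these bases in the p55α estimate was not tested. The bases are printed from the GENCODE transcript sequence with the start codon in capitals.
Pik3r1-201: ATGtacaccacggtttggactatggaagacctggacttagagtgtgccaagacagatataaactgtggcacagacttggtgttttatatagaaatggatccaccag

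Skeletal muscle is a known site of p55α, and muscle markers are given for that reason. The 10 muscle markers summed to 498, 671 and 539 CPM in fl/fl 1, 2 and 3 and 2501, 4747 and 1656 CPM in ASKO 1, 2 and 3, with *Myh4* the most abundant and none at 0. All ASKO libraries were above all controls, ASKO 2 most, and 8 of the 10 markers rose, but 1 was called without ASKO 1, fl/fl 1 or fl/fl 3, and 5 without ASKO 2. ASKO 2 and ASKO 1 ranked first and second in this sum as in Pik3r1-201 TPM, while fl/fl 3 had more Pik3r1-201 than ASKO 3 with fewer muscle counts. The part of muscle RNA in the isoform shares was not tested. Of the 8 PI3-kinase subunit genes tested (median log2 fold change -0.084), 1 was called. *Pik3cb*, the gene of the catalytic p110β, was measured at 50.9, 41.1 and 67.2 CPM in fl/fl 1, 2 and 3 and 22.0, 25.8 and 20.7 CPM in ASKO 1, 2 and 3. It fell by 1.22 on the log2 scale (adjusted p = 0.0171, edgeR, Benjamini-Hochberg), and all ASKO values were below all controls. It was not called without ASKO 1 (0.0973), ASKO 2 (0.0501) or ASKO 3 (0.0504), or with a replicate block (0.0856), where the adjusted p is in brackets, in a range of 8.75e-07 to 0.0973 over all edgeR, DESeq2 and limma fits. *Pik3ca*, named after its value was seen, encodes the p110α that insulin signalling mainly uses and had a log2 fold change of -0.17 (adjusted p = 0.275, edgeR). *Pik3r1* was the most abundant gene of the list in TPM.

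*Akt1*, on the minus strand at chr12:112653821-112674884, was measured at 136, 149 and 133 CPM in fl/fl 1, 2 and 3 and 141, 136 and 156 CPM in ASKO 1, 2 and 3. The genotypes overlapped, and the log2 fold change was 0.053 (95% interval -0.17 to 0.28, adjusted p = 0.828, edgeR, Benjamini-Hochberg). *Akt2*, the AKT gene most tied to glucose uptake in fat, lies on the plus strand at chr7:27591552-27640826 and was measured at 324, 326 and 325 CPM in fl/fl 1, 2 and 3 and 269.8, 252 and 242 CPM in ASKO 1, 2 and 3. The 3 controls hardly differed (325 ± 1.19 CPM, SD, n = 3), and every ASKO library was lower. The log2 fold change of -0.35 (standard error 0.0938, 95% interval -0.58 to -0.13) had an adjusted p of 0.0932 with edgeR and of 0.000371 with DESeq2, in a range of 0.000371 to 0.267 over all fits, so that the call rested on the tool.

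Of the 8 genes for AKT and the kinases that activate it, 1 was called and the median log2 fold change was 0.0018. *Prr5*, which encodes the mTORC2 subunit Protor-1, was measured at 19.2, 23.9 and 17.4 CPM in fl/fl 1, 2 and 3 and 10.5, 10.5 and 11.3 CPM in ASKO 1, 2 and 3. It fell by 0.90 on the log2 scale (adjusted p = 0.0160, edgeR, Benjamini-Hochberg), with no overlap, and was not called without ASKO 1 (0.0893) or ASKO 2 (0.08), or with a replicate block (0.0757) (adjusted p in brackets, range over all fits 3.06e-06 to 0.0893). *Pdpk1*, *Mtor*, *Rictor*, *Mapkap1* and *Mlst8*, chosen after their values were seen, had log2 fold changes between -0.23 and 0.094, none called. Among the 16 targets of AKT, 3 were called, all lower in ASKO, with a median log2 fold change of -0.054. *Eif4ebp1*, a repressor of translation controlled by mTORC1, was measured at 171, 231 and 191 CPM in fl/fl 1, 2 and 3 and 49.1, 40.7 and 50.5 CPM in ASKO 1, 2 and 3. It fell by 2.08 (adjusted p = 0.000967, edgeR, Benjamini-Hochberg), the widest gap of this list. *Pde3b*, the phosphodiesterase through which insulin restrains lipolysis, was at 233, 308 and 305 CPM in fl/fl 1, 2 and 3 and 126, 105 and 128 CPM in ASKO 1, 2 and 3 and fell by 1.24 (adjusted p = 0.00571, edgeR). *Gys1*, the muscle-type glycogen synthase gene, was at 140.5, 105 and 166 CPM in fl/fl 1, 2 and 3 and 80.4, 72.9 and 75.9 CPM in ASKO 1, 2 and 3 and fell by 0.84 (adjusted p = 0.0401, edgeR). Muscle marker sums were higher in ASKO, and the part of muscle RNA in the *Gys1* result was not tested. *Gys1* was called in 8 of 16 fits. Its adjusted p was 0.0805 to 0.149 without ASKO 1, 2 or 3 or fl/fl 1 or 3, and 0.000311 to 0.149 over all fits (edgeR, DESeq2 and limma). *Acly*, which cleaves citrate for lipid synthesis and was the most abundant of the list by TPM, ran from 208 CPM in fl/fl 2 to 3046 CPM in fl/fl 3, a range that held all ASKO values. *Foxo1* and the GSK3 genes *Gsk3a* and *Gsk3b*, chosen after their values were seen, were at log2 fold changes of -0.13, -0.084 and 0.12.

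The brakes on the pathway, 17 tested genes, had 11 log2 fold changes above 0 and 6 below, a median of 0.29, and 1 called. *Grb14*, which encodes an adaptor that binds the activated insulin receptor and blocks its kinase, was measured at 9.62, 6.61 and 7.33 CPM in fl/fl 1, 2 and 3 and 34.9, 28.0 and 14.8 CPM in ASKO 1, 2 and 3. Every ASKO library was above every control, and ASKO 1 and ASKO 2 more so than ASKO 3. *Grb14* rose by 1.72 on the log2 scale (standard error 0.323, adjusted p = 0.0329, edgeR, Benjamini-Hochberg), to a mean of 20.4 TPM in ASKO from 5.53 TPM, so that in ASKO its TPM exceeded that of *Insr*, which it did not in fl/fl. It was not called without ASKO 1 (0.114), ASKO 2 (0.122), fl/fl 1 (0.0691), fl/fl 2 (0.0704) or fl/fl 3 (0.1), or with a replicate block (0.0589) (adjusted p in brackets, range over all fits 7.48e-06 to 0.122), with log2 fold changes between 1.44 and 1.98 over all fits. *Inppl1*, a lipid phosphatase gene and the most abundant of the list by TPM, was at a log2 fold change of 0.29 (adjusted p = 0.382, edgeR).

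*Tbc1d4*, on the minus strand at chr14:101442360-101609191, was measured at 77.9, 67.3 and 78.7 CPM in fl/fl 1, 2 and 3 and 41.2, 38.7 and 47.7 CPM in ASKO 1, 2 and 3. The ASKO libraries lay in a band of their own below the controls, as for *Insr*. The means were 74.6 ± 6.33 CPM in fl/fl and 42.5 ± 4.65 CPM in ASKO (SD, n = 3 each), which put ASKO at 57.0% of the control level. *Tbc1d4* fell by 0.81 on the log2 scale (standard error 0.111, 95% interval -1.08 to -0.54, adjusted p = 0.0101, edgeR, Benjamini-Hochberg). Without ASKO 1 the adjusted p was 0.0701 and without ASKO 2 it was 0.0506 (edgeR), within a range of 5.02e-07 to 0.0701 over all fits, while the log2 fold change lay between -0.92 and -0.68. Much of the TPM of *Tbc1d4* was assigned to Tbc1d4-208, annotated as an intron-retaining transcript of the 3′ part of the gene, with 11.2 ± 0.841 TPM in fl/fl and 6.90 ± 0.670 TPM in ASKO (SD, n = 3 each). The coding form Tbc1d4-209 was at 4.87, 4.85 and 6.79 TPM in fl/fl 1, 2 and 3 and 2.30, 3.12 and 4.13 TPM in ASKO 1, 2 and 3. Both were lower in each ASKO library, and their shares of the gene overlapped between the genotypes.

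RefSeq promoter windows on GRCm38.p6 were matched by symbol for 7 of the 9 genes in 12 windows. *Insr* and *Slc2a4* were not matched. The 250 bases before each start were searched on both strands for the C/EBP letters TTGCNNAA. Of the 12 windows, 1 held them, that of *Tbc1d4*, and it is shown for that reason. This window lies before the start of Tbc1d4-201 at base 101609191, a form with 1.39% of the *Tbc1d4* TPM on average. The coding form Tbc1d4-209 starts at base 101609033, and the window was not set by that start. The match, TTGCTCAA, runs from base 166 to base 159 before the start, and is in capitals in the window chr14:101609192-101609441, minus strand.
Tbc1d4: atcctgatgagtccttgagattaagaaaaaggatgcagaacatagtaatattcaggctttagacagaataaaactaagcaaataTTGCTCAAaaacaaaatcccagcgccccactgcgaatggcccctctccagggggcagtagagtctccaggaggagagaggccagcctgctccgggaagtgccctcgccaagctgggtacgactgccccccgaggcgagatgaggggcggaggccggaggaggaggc
The same letters occur in 9.56% of the 32851 RefSeq promoter windows of this length. The FOXO letters GTAAACA were found in one of the *Akt1* windows, and in 3.17% of all windows. The MEF2 letters CTA and TAG with any 4 bases between them were in none of the 12 and in 3.20% of all. A match describes the letters alone, and binding was not measured.

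The machinery of GLUT4 traffic comprised 21 tested genes with a median log2 fold change of -0.027, of which 3 were called, all lower. *Sort1*, which encodes sortilin, needed to form GLUT4 storage vesicles, was measured at 279, 337 and 377 CPM in fl/fl 1, 2 and 3 and 141, 151 and 131 CPM in ASKO 1, 2 and 3. It fell by 1.23 on the log2 scale (adjusted p = 0.00475, edgeR, Benjamini-Hochberg), a larger drop than that of *Tbc1d4*, and held its call in all 16 fits. *Ralgapa2*, a subunit gene of the GTPase-activating complex for RalA, an AKT substrate in GLUT4 delivery, was at 107, 104 and 146 CPM in fl/fl 1, 2 and 3 and 68.4, 60.4 and 63.5 CPM in ASKO 1, 2 and 3 and fell by 0.89 (adjusted p = 0.0211, edgeR), but was not called without ASKO 1 (0.0861), ASKO 2 (0.0897) or ASKO 3 (0.0532), or with a replicate block (0.068) (adjusted p in brackets, range over all fits 8.56e-06 to 0.0897). With limma at a pseudocount of 1 or 0.1 it was not called either (log2 fold changes of -0.73 and -0.79, adjusted p of 0.0572 and 0.0536). The Rab genes *Rab10*, *Rab14* and *Rab8a* and the fusion protein genes *Vamp2*, *Snap23* and *Stx4a*, chosen apart from *Stx4a* after their values were seen, had log2 fold changes between -0.059 and 0.11, none called, and *Stx4a* was the most abundant of the list by TPM. *Tbc1d1*, the paralogue of *Tbc1d4* that prevails in muscle and is named after its values were seen, was at 27.6, 19.6 and 23.8 CPM in fl/fl 1, 2 and 3 and 30.6, 31.9 and 32.3 CPM in ASKO 1, 2 and 3. It was higher in each ASKO library but was not called (log2 fold change 0.42, adjusted p = 0.138, edgeR).

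*Slc2a4*, on the minus strand at chr11:69942539-69948188, was measured at 196, 169 and 272 CPM in fl/fl 1, 2 and 3 and 232, 232 and 173 CPM in ASKO 1, 2 and 3. The highest and the lowest value both came from controls, and all ASKO libraries lay between them. On the TPM scale the libraries had 98.4, 95.8 and 148 TPM in fl/fl and 115, 136 and 103 TPM in ASKO, with the same overlap. edgeR gave a log2 fold change of -0.0011 ± 0.208 (standard error, n = 3 each, adjusted p = 0.998, Benjamini-Hochberg). Its 95% interval ran from -0.50 to 0.49, so that a difference of up to that size in either direction may have gone undetected with 3 libraries a genotype. Its sign changed with the library left out, the log2 fold change being 0.22 without fl/fl 3 and 0.11 without ASKO 3, over a range of -0.15 to 0.22. With library totals it was 0.049, while the median over all genes tested went from 0.025 to 0.073. The main transcript, Slc2a4-201, carried 85.9% of the TPM of the gene in fl/fl and 85.9% in ASKO. GLUT4 is also the transporter of muscle and brown fat. The muscle marker sum was 5.21 times as high in ASKO on average, as listed above. Without ASKO 2, the library with most muscle counts, the *Slc2a4* log2 fold change was -0.083, and without ASKO 1 it was -0.071. The 7 brown and beige markers summed to 1299, 149.9 and 387 CPM in fl/fl 1, 2 and 3 and 1415, 1073 and 732 CPM in ASKO 1, 2 and 3, and none was at 0. The most abundant was *Cidea* in each ASKO library, *Ucp1* in fl/fl 1 and *Cox8b* in fl/fl 2 and fl/fl 3. The sums overlapped between genotypes, since fl/fl 1 was as high as ASKO, and no marker was called with edgeR (3 at an unadjusted p under 0.05, and 1 called with DESeq2 and 1 without fl/fl 2). Without *Ucp1* they were 566, 131 and 275 CPM in fl/fl 1, 2 and 3 and 1167, 849 and 551 CPM in ASKO 1, 2 and 3, and only fl/fl 1 and ASKO 3 overlapped. Without *Cidea* they were 1051, 116 and 268 CPM in fl/fl 1, 2 and 3 and 683, 549 and 389 CPM in ASKO 1, 2 and 3, with fl/fl 1 the highest. Of the 7 log2 fold changes, 3 were above 0 and 4 below, with a median of -0.25. The part of muscle or brown fat RNA in the *Slc2a4* level was not tested. The profiles nearest to *Slc2a4* were those of *Reep6* (root-mean-square difference 0.0806), *Ipp* (0.0841) and *D5Ertd579e* (0.0865), with a median gene at 0.301. *Reep6* was at 22.0, 17.9 and 28.8 CPM in fl/fl and 23.3, 23.8 and 16.2 CPM in ASKO, highest in fl/fl 3 and lowest in ASKO 3.

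Several transcription factors known to act on the *Slc2a4* gene fell. Of the 10 regulators listed, 4 were called (beside 5.23% of all genes tested), all lower, among them *Cebpa* itself, and the median log2 fold change was -0.27. *Klf15* was measured at 43.7, 59.7 and 66.1 CPM in fl/fl 1, 2 and 3 and 11.9, 16.9 and 17.3 CPM in ASKO 1, 2 and 3 and fell by 1.88 on the log2 scale (adjusted p = 0.00435, edgeR, Benjamini-Hochberg). *Nr1h3*, the LXRα gene, was at 73.3, 79.7 and 79.8 CPM in fl/fl 1, 2 and 3 and 32.2, 31.8 and 30.1 CPM in ASKO 1, 2 and 3 and fell by 1.31 (adjusted p = 0.000724, edgeR). *Pparg*, the master regulator of adipocytes, was at 172, 162 and 196 CPM in fl/fl 1, 2 and 3 and 106, 109.6 and 93.1 CPM in ASKO 1, 2 and 3 and fell by 0.78 (adjusted p = 0.0125, edgeR), but was not called without ASKO 1 (0.07), or with a replicate block (0.0821) (adjusted p in brackets, range over all fits 1.18e-07 to 0.0821). None of these 3 overlapped between genotypes, but they are named because they were called. Over the list, 6 of the 10 did not overlap, beside 26.1% of all genes tested. The MEF2 genes *Mef2a*, *Mef2c* and *Mef2d*, chosen after their values were seen, were at log2 fold changes of -0.066, 0.079 and 0.34, not called, and *Srebf1*, the most abundant regulator by TPM, was at a log2 fold change of 0.16 (adjusted p = 0.763, edgeR).

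*Slc2a1*, on the plus strand at chr4:119108711-119137983, was measured at 18.9, 14.8 and 23.8 CPM in fl/fl 1, 2 and 3 and 28.0, 29.6 and 43.6 CPM in ASKO 1, 2 and 3. Each ASKO library was above each control, ASKO 3 most, and fl/fl 3 came nearest from below. The means were 19.2 ± 4.51 CPM in fl/fl and 33.7 ± 8.57 CPM in ASKO (SD, n = 3 each). With edgeR, the difference of 0.82 on the log2 scale (standard error 0.231, 95% interval 0.27 to 1.37) had an adjusted p of 0.109, and of 0.0243 with DESeq2, in a range of 0.0243 to 0.254 over all fits. Without ASKO 3 the log2 fold change was 0.57. The full-length coding form Slc2a1-201 (492 residues) stood at 2.96, 2.36 and 3.15 TPM in fl/fl 1, 2 and 3 and 4.36, 5.94 and 9.30 TPM in ASKO 1, 2 and 3, higher in each ASKO library. More of the TPM was assigned to Slc2a1-204, annotated as a target of nonsense-mediated decay, at 5.77, 5.42 and 8.93 TPM in fl/fl 1, 2 and 3 and 8.72, 9.44 and 13.7 TPM in ASKO 1, 2 and 3. That form overlapped between the genotypes, through fl/fl 3 and ASKO 1. GLUT1 is also made by epithelial and nerve-sheath cells, whose markers are given for that reason. The 8 mammary epithelial markers summed to 915, 607 and 1296 CPM in fl/fl 1, 2 and 3 and 1849, 1662 and 1807 CPM in ASKO 1, 2 and 3. *Krt18* was the most abundant in fl/fl 1 and fl/fl 2, and *Krt8* in the other libraries. The epithelial sum was higher in each ASKO library, and none of these markers was called with edgeR (6 at an unadjusted p under 0.05, and 2 called with DESeq2). The 6 nerve and Schwann cell markers summed to 188, 196 and 132 CPM in fl/fl 1, 2 and 3 and 349.9, 274 and 246 CPM in ASKO 1, 2 and 3. *S100b* was the most abundant in ASKO 1 and ASKO 2, and *Mbp* in the other libraries. Of these markers 1 was called (*S100b*, also expressed by adipocytes), which was lost without ASKO 1 (0.075), ASKO 2 (0.0728) or fl/fl 3 (0.0539) (edgeR adjusted p in brackets, range over all fits 7.61e-11 to 0.0750). The nerve and Schwann cell sum too was higher in each ASKO library, but without *S100b* it was 172, 187 and 126 CPM in fl/fl 1, 2 and 3 and 222, 176 and 201 CPM in ASKO 1, 2 and 3, which overlap, so the gap rested on that gene. Neither list had a gene at 0 in all libraries. Erythroid markers were lower in each ASKO library, at 716, 1051 and 568 CPM in fl/fl 1, 2 and 3 and 496, 409 and 362 CPM in ASKO 1, 2 and 3 for 6 genes, with *Hbb-bs* the most abundant and none called with edgeR (5 at an unadjusted p under 0.05, and 4 called with DESeq2 and 1 without fl/fl 3). The part of epithelial or nerve-sheath cells in the *Slc2a1* values was not tested.

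Among the 12 *Slc2a* genes, *Slc2a4* was the chief transporter transcript in both genotypes by TPM. It supplied 72.8%, 74.1% and 74.1% in fl/fl 1, 2 and 3 and 64.9%, 68.0% and 59.5% in ASKO 1, 2 and 3 of the summed *Slc2a* TPM (p = 0.1 by exact permutation, two-sided, again the lowest possible). The share was lower in each ASKO library, 64.1 ± 4.30% against 73.7 ± 0.774% (SD, n = 3 each), while its own TPM overlapped. *Slc2a1* made up 6.46%, 6.02% and 6.28% in fl/fl 1, 2 and 3 and 7.36%, 7.69% and 13.7% in ASKO 1, 2 and 3. *Slc2a5*, the gene of the fructose transporter GLUT5 and named after its values were seen, made up 6.46%, 0.399% and 9.10% in fl/fl 1, 2 and 3 and 19.1%, 15.2% and 16.0% in ASKO 1, 2 and 3. Its control values were widely scattered, from 1.23 CPM in fl/fl 2 to 34.2 CPM in fl/fl 3, below the ASKO range of 44.9 to 67.1 CPM, and it was not called (adjusted p = 0.386, edgeR). The mean share of *Slc2a5* differed by 11.4 percentage points between the genotypes (ASKO minus fl/fl), and that of *Slc2a4* by -9.55. Shares of 1 sum depend on each other, so the lower *Slc2a4* share does not show less *Slc2a4*. The part of *Slc2a5* in that share was not tested. Of the 10 transporter genes tested (median log2 fold change -0.046), 2 were called, both lower. *Slc2a13*, the proton-coupled myo-inositol transporter gene, was measured at 8.62, 11.1 and 9.28 CPM in fl/fl 1, 2 and 3 and 3.52, 4.31 and 4.11 CPM in ASKO 1, 2 and 3 and fell by 1.28 on the log2 scale (adjusted p = 0.00843, edgeR, Benjamini-Hochberg), but was not called without ASKO 1 (0.0538) (adjusted p in brackets, range over all fits 8.27e-10 to 0.0880). Nor was it called with limma at a pseudocount of 1 or 0.1 (log2 fold changes of -0.66 and -1.12, adjusted p of 0.0811 and 0.088). *Slc2a12*, which encodes GLUT12, a further transporter reported to answer to insulin, was at 4.63, 5.04 and 4.34 CPM in fl/fl 1, 2 and 3 and 2.35, 2.91 and 2.29 CPM in ASKO 1, 2 and 3 and fell by 0.89 (adjusted p = 0.0466, edgeR), but was called in 5 of 16 fits. Its adjusted p was 0.0837 to 0.178 with each of ASKO 1 to 3 and fl/fl 1 to 3 left out in turn, and 0.000344 to 0.212 over all fits (edgeR, DESeq2 and limma). With mean levels in fl/fl of 1.81 and 1.39 TPM, both are minor transcripts beside *Slc2a4*. *Slc2a7* had 0 counts in all libraries.

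**Figure D2:**
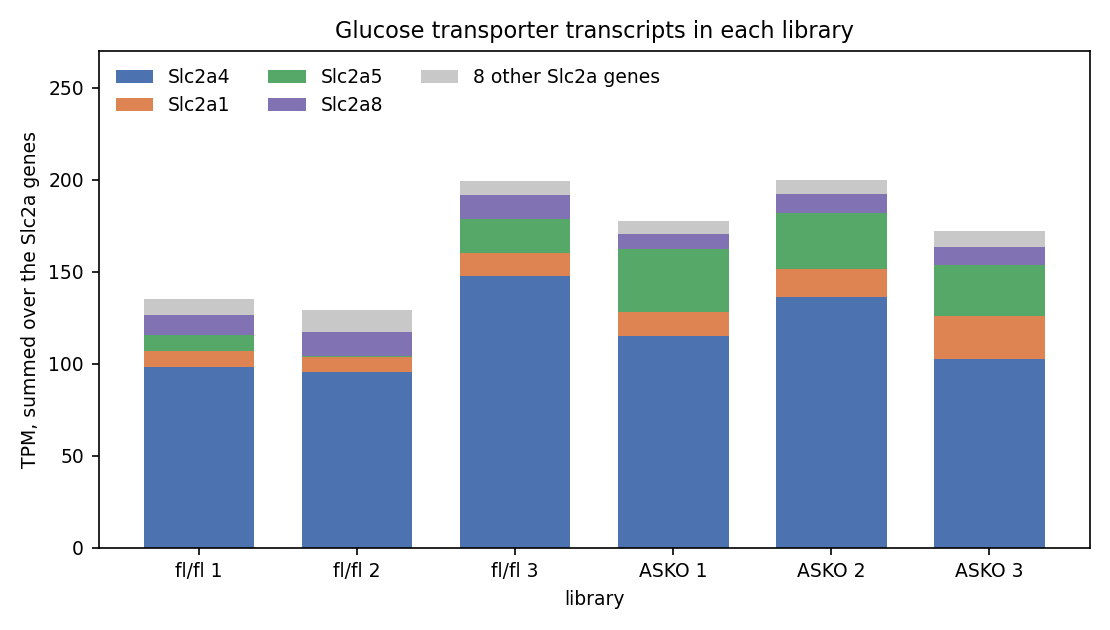
Stacked TPM of the 12 *Slc2a* genes in each library, with *Slc2a4*, *Slc2a1*, *Slc2a5* and *Slc2a8*, the 4 most abundant, in colour and the remaining 8 in grey. *Slc2a4* is the largest block in every library, and the *Slc2a5* block is nearly absent in fl/fl 2 (0.399% of the sum).

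Genes that insulin drives were examined as a readout at the transcript level. The 13 insulin-induced genes, mostly of lipid synthesis, summed to 39052, 16944 and 59530.1 CPM in fl/fl 1, 2 and 3 and 64474, 53428 and 44059 CPM in ASKO 1, 2 and 3. Without *Scd1*, the most abundant by CPM, they summed to 18833, 5942 and 31135 CPM in fl/fl 1, 2 and 3 and 20447, 18491 and 16398 CPM in ASKO 1, 2 and 3, so that the higher mean in ASKO (53987 against 38509 CPM) rested on that gene (18445 against 18636 CPM without it), and both sums overlapped between genotypes. The library fl/fl 2 was the lowest in the sum and for 10 of the 13 genes, and the controls spanned a wider range than the genotypes differed. *Slc2a4* was also lowest in fl/fl 2 and highest in fl/fl 3. Among these genes 1 was called, and 2 were with DESeq2 or without fl/fl 2, *Me1* (named after its values were seen) being added. Without fl/fl 2, 6 rather than 3 had an unadjusted edgeR p under 0.05. *Pnpla3*, a lipid droplet protein gene measured at 250.0, 169 and 365 CPM in fl/fl 1, 2 and 3 and 98.1, 59.8 and 57.0 CPM in ASKO 1, 2 and 3, fell by 1.87 on the log2 scale (adjusted p = 0.0287, edgeR, Benjamini-Hochberg). *Pnpla3* was not called without ASKO 1 (0.0549), ASKO 2 (0.119), fl/fl 1 (0.073), fl/fl 3 (0.0573) or ASKO 3 (0.0741), or with a replicate block (0.0739) (edgeR adjusted p in brackets, range over all fits 3.49e-07 to 0.119). *Scd1*, a fatty acid desaturase gene and the most abundant by TPM, was at a log2 fold change of 0.84 (adjusted p = 0.381, edgeR). The median over the list was 0.063. The 13 insulin-repressed genes, which include *Irs2*, summed to 5837, 5506 and 5681 CPM in fl/fl 1, 2 and 3 and 4608, 3359 and 4121 CPM in ASKO 1, 2 and 3, lower in each ASKO library. The most abundant by CPM, *Pck1*, which encodes PEPCK, the enzyme of glyceroneogenesis, was at 2495, 1774 and 2284 CPM in fl/fl 1, 2 and 3 and 795, 506 and 683 CPM in ASKO 1, 2 and 3. *Pck1* fell by 1.72 (adjusted p = 0.00918, edgeR, Benjamini-Hochberg), and without it the list summed to 3343, 3732 and 3398 CPM in fl/fl 1, 2 and 3 and 3813, 2853 and 3438 CPM in ASKO 1, 2 and 3, which overlap, so the gap between genotypes rested on *Pck1*. *Klf15*, given above, was the other called gene of 12 tested, while DESeq2 called 5, adding *Pnpla2*, and *Trim63* and *Txnip*, named after their values were seen. *Pnpla2*, the lipase gene with the most TPM in the list, was at a log2 fold change of -0.79 (adjusted p = 0.0522, edgeR) and was called in 3 of 16 fits. The median of this list was 0.02, and *Igfbp1* had 0 counts in all libraries. The induced list had 7 log2 fold changes above 0 and 6 below, and the repressed list 7 above and 5 below. An unadjusted edgeR p under 0.05 was found for 8 of the 12 repressed genes tested and 3 of the 13 induced, beside 3185 of all 16069 tested. The genotypes did not overlap for 8 repressed genes and 1 induced gene, beside 26.1% of all genes tested. In the repressed list these genes went in both directions. Macrophage and stromal markers overlapped between genotypes. The 6 macrophage markers, led by *Lyz2*, summed to 1259.7, 2236 and 839 CPM in fl/fl 1, 2 and 3 and 1375, 1457 and 1785 CPM in ASKO 1, 2 and 3, and the 6 fibroblast and progenitor markers, led by *Dcn*, to 3182, 5703 and 2931 CPM in fl/fl 1, 2 and 3 and 4497, 4389 and 4956 CPM in ASKO 1, 2 and 3. Both sums were highest in fl/fl 2, the control with the lowest *Slc2a4* and *Irs1*, and with all 6 libraries no gene of either list was called with edgeR or DESeq2 or had an unadjusted edgeR p under 0.05 (0 and 0). Without fl/fl 2, edgeR gave 3 macrophage and 4 fibroblast and progenitor genes an unadjusted p under 0.05 and called 1, *Ly6a* (named after its values were seen), and no macrophage gene.

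Over the 8 pathway lists, each gene once, 102 of 105 genes were tested and 17 were called (16.7%, beside 5.23% of all genes tested), 16 lower, *Cebpa* among them, and 1 higher, *Grb14*. The lists were chosen with earlier results of these data known, so these shares do not test the pathway as a whole. Without ASKO 1, 8 were called, beside 311 of all 16430 genes tested, and without ASKO 2, 9, beside 363 of 16378. With a replicate block 9 were called, beside 370 of 16069, and with DESeq2 24, beside 1802 of 17585. The median log2 fold change over these genes was -0.034. The called genes lay at several levels of the pathway, from the receptor (*Insr*) through PI3-kinase (*Pik3cb*) and AS160 (*Tbc1d4*) to sortilin (*Sort1*), whereas the genes of the adaptors *Irs1* and *Irs2*, of p85α, of AKT1, AKT2 and GLUT4 were not called with edgeR. *Insr* and *Sort1* were called in all 16 fits, but *Pik3cb* and *Tbc1d4* lost their calls with single ASKO libraries left out. *Akt2* did not overlap between genotypes and was called with DESeq2.

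**Figure D3:**
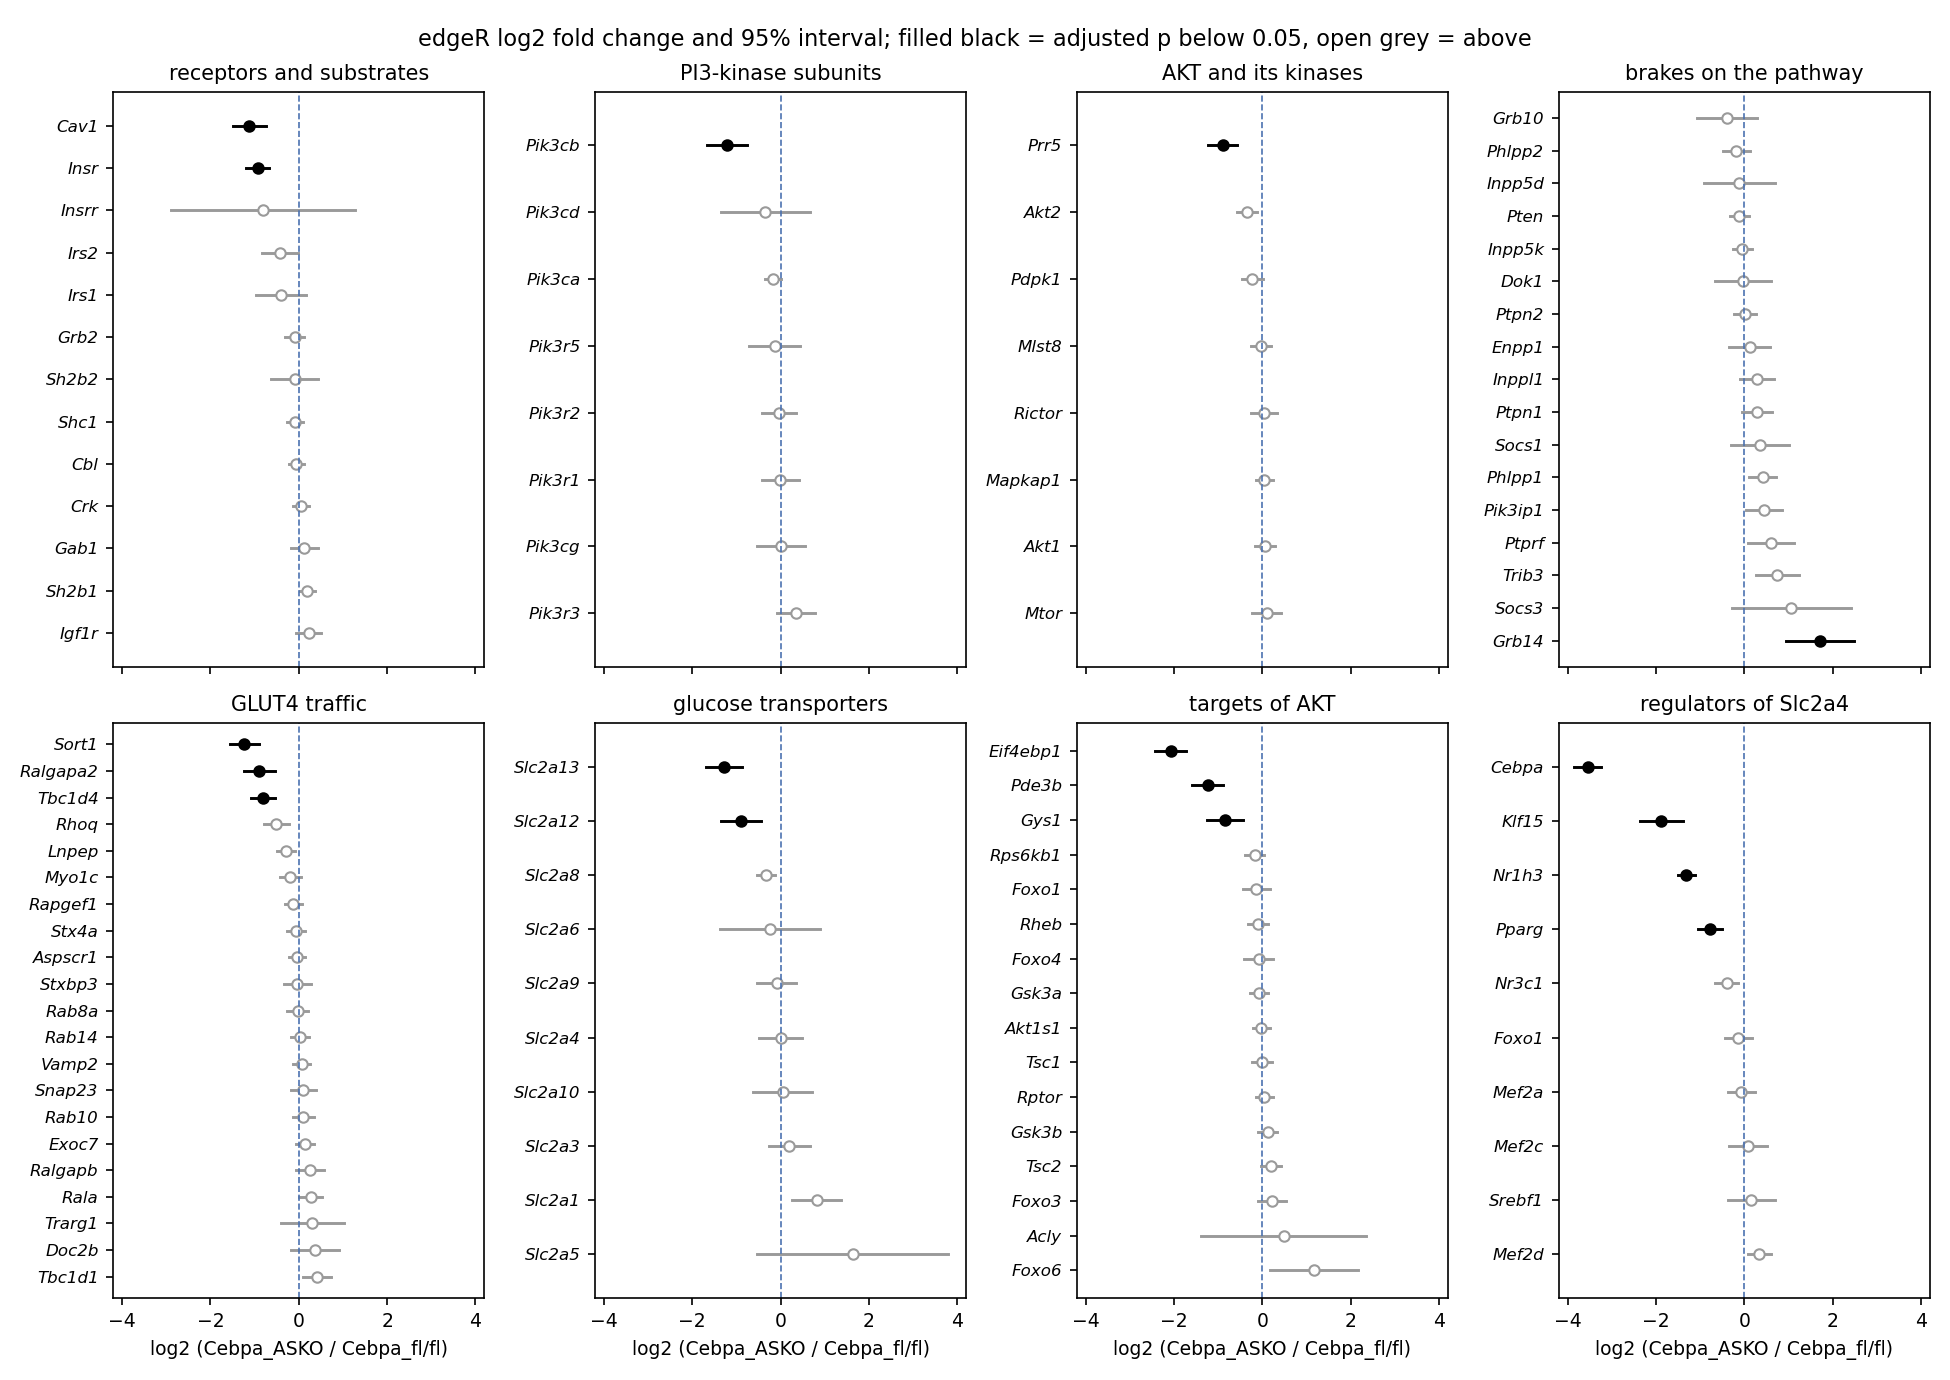
edgeR log2 fold change (ASKO over fl/fl, horizontal axis) with its 95% interval for the tested genes of each pathway list, filled black where the adjusted p was below 0.05 and open grey otherwise. Most genes lie near 0, the called genes are to the left except *Grb14* (1.72), and the interval of *Slc2a4* spans -0.50 to 0.49.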

How the data were processed

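Both groups were sequenced as polyadenylated RNA. Per the submitters' processing notes, the authors quantified reads with kallisto 0.44.0 on GRCm38.p6, and deposited for each library a transcript table of estimated counts and TPM (a per-length abundance), and a table of TPM summed per gene symbol. The authors' annotation release is not given in the sources used here. Transcripts were named from GENCODE M21 (98.6% of 118489 matched). Estimated counts were summed per gene symbol and rounded, filtered with filterByExpr, scaled by TMM and fitted with edgeR 4.0.16 (quasi-likelihood, R 4.3.3), and p was adjusted by Benjamini-Hochberg over all genes tested, with a threshold of 0.05. Shares were compared by exact two-sided permutation tests, in which 3 against 3 libraries cannot give less than 0.1. The edgeR script was tested on simulated data, as a check of its code only. Depth is the total of estimated counts per library, and limits set by a count of 0 cover counting error only. Alternatives were DESeq2 1.42.0, its size factors in edgeR, library totals alone, genes with at least 1 count, at least 10 counts in every library, a transcript length offset, limma 3.58.1 on log2(TPM + 1) and log2(TPM + 0.1), the replicate number as a block, and each library left out in turn. Shares were also taken from summed estimated counts and from protein-coding transcripts alone. Tables and permutations were run in scipy 1.17.1 and pandas 2.3.3 under Python 3.11.15. The genes named are the 9 of the pathway core, the called genes of each list (at most 8) with its most abundant gene by TPM, and the 3 genes with the profile nearest to *Slc2a4* and to *Insr*, symbols of predicted genes and clones left aside. The 8 pathway lists, 2 lists of insulin-regulated genes and 10 marker lists, like the 9 genes, were chosen with earlier results of these data known. Of these lists, 2 genes, and a share that needs 1 of them, are not reported here, and the counts leave them out.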

Additional observations from a re-analysis of the deposited data

How the results depend on the processing

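Where edgeR called 840 genes, DESeq2 called 1802 and the fit with the replicate block 370, leaving out a library gave 311 to 922, and the other settings 626 to 863. Of the 9 genes, DESeq2 called 4 where edgeR called 2, leaving out a library gave 1 to 2, and all other settings, the replicate block (2) included, called the same genes. The log2 fold change of *Slc2a4* changed sign with library totals (0.049), limma at both pseudocounts (0.068 and 0.069), the replicate block (0.017) and single libraries left out (-0.15 to 0.22). That of *Pik3r1* changed sign with library totals (0.047), limma (0.15 and 0.16), the replicate block (0.014) and single libraries left out (-0.17 to 0.093). That of *Akt1* changed sign without ASKO 3 (range -0.024 to 0.091 with a library left out and -0.024 to 0.163 over all fits). Library totals moved the median over all genes tested from 0.025 to 0.073, so a change of sign with them is not particular to *Slc2a4* or *Pik3r1*. The cause of the other differences was not tested. With a library left out, the share of *Slc2a4* differed by -11.5 to -7.24 percentage points and that of *Irs1* by -3.10 to 5.28. As shares of estimated counts, the differences for Akt1-201 (-0.660), Insr-201 (0.0486) and Insr-203 (-0.216 percentage points) moved by more than 1 SD. Deviations from the group means of libraries with the same number had a Pearson r across genes, which are not independent replicates, of 0.0662, 0.0278 and -0.201, and not every library correlated best with its own number. Deviations from a mean of 3 libraries constrain each other, so these values cannot decide whether libraries with the same number were paired.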
